A study of Mus musculus with 74 samples.

Results

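The Prame-like early embryo genes are 10 named genes of the mouse Prame family, taken as listed from the GENCODE M21 annotation of mm10 because they are expressed in early embryos and pluripotent cells, out of 21938 protein-coding genes. They are Pramel6 and Pramel7 on chromosome 2, and Pramel1, Pramel5, Pramef6, Pramef8, Pramef12, Pramef17, Pramef20 and Pramef25 on chromosome 4. H3K9me3, the trimethylation of lysine 9 of histone H3, was mapped with ULI-NChIP-seq, a native ChIP-seq for low input in which unfixed chromatin of few cells is precipitated with an antibody. The CC list came from cumulus cells, the cells around the oocyte, of B6D2F1 females, and 8 lists came from SCNT embryos, cloned by somatic cell nuclear transfer: a CC nucleus is injected into an enucleated B6D2F1 oocyte and the construct is activated with SrCl2 in the presence of cytochalasin B. SCNT embryos were taken 6 h and 14 h after activation (6 hpa and 14 hpa), at cleavage (2-cell, then 4-cell, then 8-cell), as morulae, and as blastocysts divided by micromanipulation into inner cell mass (ICM) and trophectoderm (TE). The PN5 list came from fertilized zygotes at pronuclear stage 5 of C57BL/6 parents and, by the methods of the study, from an earlier publication. Strain, sex mix and study therefore cannot be told apart from the type of embryo in any comparison with PN5.

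Each group was deposited as 1 peak list made from its pooled libraries, between 2 and 7 precipitates per list by the labels, so no value below has a replicate error and no test across samples was possible. Peak numbers per list ran from 120195 (2-cell) to 200342 (morula), and the peaks covered between 134 Mb (PN5) and 255 Mb (CC) of the genome. Where no peak was listed, enrichment did not pass the peak caller's threshold, which does not show that the mark was absent. In pooled cells a mark in some cells and a weaker mark in all cells cannot be told apart.

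Prame family genes encode leucine-rich repeat proteins, and PRAME itself is a substrate receptor of a cullin ubiquitin ligase best known from testis and tumours. In the mouse the family has expanded into tandem arrays whose members are used in germ cells, oocytes and cleavage embryos. Pramel7 and Pramel6 are known from naive pluripotent cells, where Pramel7 promotes the breakdown of UHRF1, the partner of the maintenance DNA methyltransferase. H3K9me3 is placed by SUV39H and SETDB1 methyltransferases, is bound by HP1 proteins and is typical of silent, repeat-rich chromatin and of many clustered gene families.

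Promoter sequences were available from RefSeq for 9 of the 10 genes, Pramef8 being the exception. RefSeq uses newer symbols for 6 genes, namely Pramel11 for Pramef6, Pramel12 for Pramef8, Pramel13 for Pramef12, Pramel14 for Pramef17, Pramel15 for Pramef20 and Pramel16 for Pramef25. The 4 windows below run from 250 bases before to 50 bases after the RefSeq start on GRCm38.p6 (the mm10 assembly) and read 5′ to 3′ along the gene, with CG dinucleotides in capitals. Pramef17 (chr4:143994320-143994619, minus strand) and Pramel7 (chr2:87492369-87492668, minus strand) are shown because they are the most alike pair of promoters and differed in H3K9me3. Pramef6 (chr4:143900331-143900630, minus strand) is shown for its CC peak, and Pramel1 (chr4:143394191-143394490, plus strand) as the window with the most CG.
Pramef17: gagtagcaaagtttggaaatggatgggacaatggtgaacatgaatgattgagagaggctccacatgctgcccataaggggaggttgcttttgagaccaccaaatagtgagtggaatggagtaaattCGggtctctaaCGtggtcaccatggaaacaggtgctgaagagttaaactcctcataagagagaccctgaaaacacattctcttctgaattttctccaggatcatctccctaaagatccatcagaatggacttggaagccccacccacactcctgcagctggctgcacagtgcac
Pramel7: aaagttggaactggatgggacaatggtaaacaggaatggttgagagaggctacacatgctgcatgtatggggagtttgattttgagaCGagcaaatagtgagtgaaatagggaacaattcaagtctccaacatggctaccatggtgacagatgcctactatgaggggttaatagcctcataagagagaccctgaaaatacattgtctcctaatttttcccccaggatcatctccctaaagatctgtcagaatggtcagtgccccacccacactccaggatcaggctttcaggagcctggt
Pramef6: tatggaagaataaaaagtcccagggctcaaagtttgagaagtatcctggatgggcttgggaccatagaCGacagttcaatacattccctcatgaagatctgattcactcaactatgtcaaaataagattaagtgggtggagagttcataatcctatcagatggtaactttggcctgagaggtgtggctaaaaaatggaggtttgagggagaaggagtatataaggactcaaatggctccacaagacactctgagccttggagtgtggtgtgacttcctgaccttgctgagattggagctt
Pramel1: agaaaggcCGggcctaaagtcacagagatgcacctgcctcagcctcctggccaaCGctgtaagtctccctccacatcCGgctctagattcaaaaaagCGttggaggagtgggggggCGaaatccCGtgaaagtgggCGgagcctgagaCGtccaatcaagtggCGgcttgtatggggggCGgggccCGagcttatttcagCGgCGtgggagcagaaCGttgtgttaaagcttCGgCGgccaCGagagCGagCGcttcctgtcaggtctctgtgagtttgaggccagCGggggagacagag

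The Pramef17 and Pramel7 windows were identical at 75.2% of 311 aligned columns, whereas no other of the 36 pairs of windows exceeded 54.4%. Peaks covered 100% of the Pramef17 window in each of CC, 6 hpa and 14 hpa and 0% of it in the 7 other lists. The Pramel7 window held no peak in any of the 10 lists. Within these windows, closely similar promoter sequence thus stood under peaks on chromosome 4 and outside peaks on chromosome 2. The contrast is narrower around them. The Pramel7 window lies at a RefSeq start 4675 bases inside the GENCODE gene. Counted over 1 kb either side of that start, 34.8% was covered at 14 hpa and 0% in every other list. The Pramef6 window was covered to 100% (CC) and to 4.67% (morula), and to 0% in the 8 other lists. The CG-rich Pramel1 window was covered to 95% (CC), 100% (6 hpa) and 56.7% (14 hpa), and to 0% afterwards and in PN5. It held 20 CG dinucleotides, a number reached or passed by 26.5% of the 32851 RefSeq promoters, while Pramef6 and Pramel7 held 1 each and Pramef17 held 2 against a median of 7. At most 2 CG dinucleotides were found in 23.3% of all promoters.

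The widest H3K9me3 coverage of single members was found in CC, at 3 genes of the chromosome 4 array. Members with any peak numbered 6 (CC), 7 (6 hpa) and 7 (14 hpa) of 10, where 46.8%, 62.3% and 46.0% of all genes had one. The median member was covered to 3.30%, 8.98% and 5.45% in these lists, against 0%, 1.28% and 0% for all genes. Later the number with any peak was 1 (2-cell, 33.4% of all genes), 1 (4-cell, 35.0%), 2 (8-cell, 38.4%) and 2 (morula, 39.6%). It was 3 in ICM (40.0%), 5 in TE (40.6%) and 5 in PN5 (54.3%). A gene was called covered when merged peaks took up at least 50% of it from first to last base. In CC 3 of 10 genes, Pramef25, Pramef17 and Pramef6, were covered, against 4.76% of all protein-coding genes. At 6 hpa no member was covered (3.83% of all genes) and at 14 hpa Pramef25 alone was (3.40%). From the 2-cell stage on and in PN5 none of the 10 genes was covered, where the share of all genes was 1.98% (2-cell), 2.26% (4-cell), 2.23% (8-cell), 1.68% (morula), 1.08% (ICM), 0.843% (TE) and 1.95% (PN5). The calls depend on how far each list extends: with every list trimmed to the covered length of PN5, 0 genes were covered in CC and 0 at 14 hpa.

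**Figure D1:**
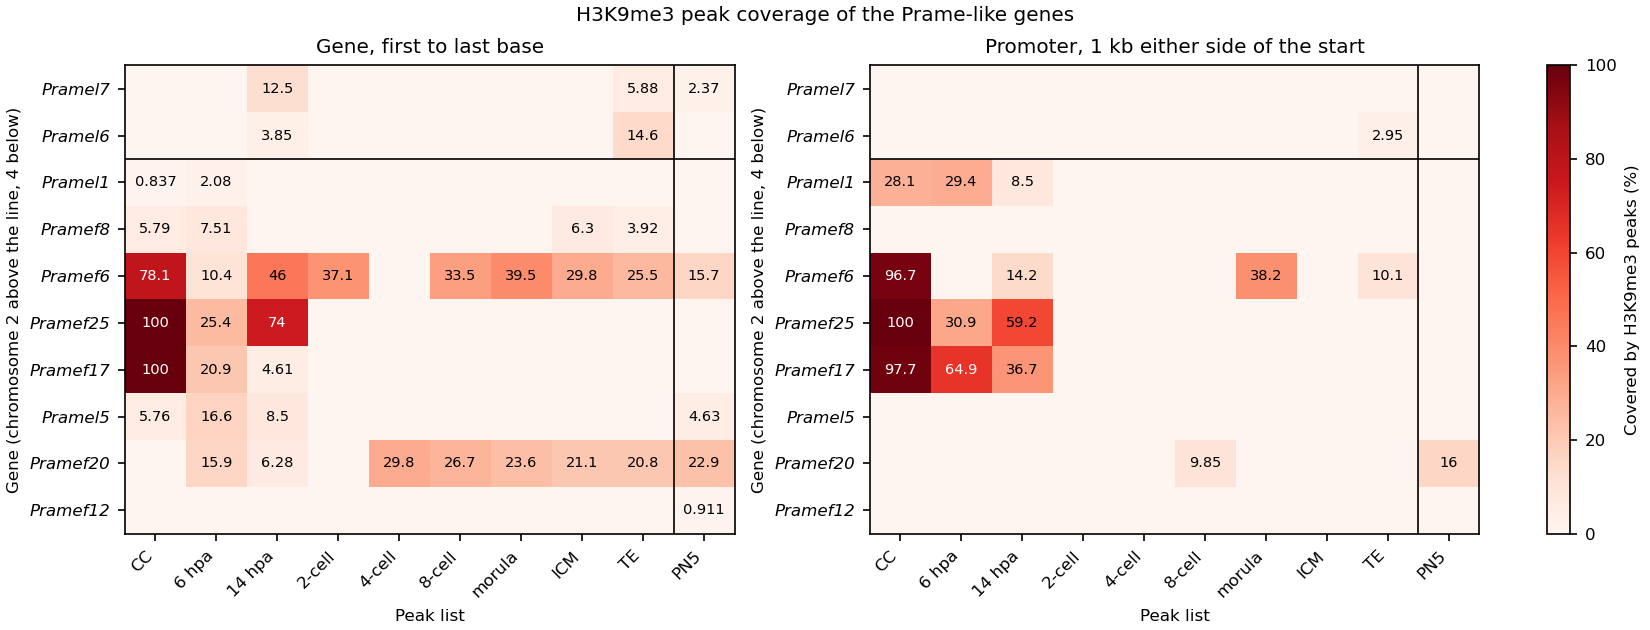
Percent of each gene (left) and of its promoter (right) covered by merged H3K9me3 peaks, with genes as rows and the 10 peak lists as columns; empty cells are 0. Pramef25 and Pramef17 are at 100% (CC) and empty from the 2-cell stage on, while Pramef6 (but for the 4-cell list) and Pramef20 (from the 4-cell list on) are partly covered later.

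Pramef25 (chr4:143948580-143951016, minus strand), a short gene of 2437 bases, was covered to 100% (CC), 25.4% (6 hpa), 74.0% (14 hpa) and 0% in the other 7 lists. A single CC peak of 9181 bp with a fold over input of 2.60 ran from 1848 bases before its start past its last base. The level at 14 hpa lay above that at 6 hpa and came from 2 peaks of fold 2.35 and 2.39, both below the 14 hpa median of 2.72. Coverage of its exons alone was 100% (CC), 16.4% (6 hpa) and 78.9% (14 hpa).

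Pramef17 (chr4:143991119-143994369, minus strand) was covered to 100% (CC), 20.9% (6 hpa), 4.61% (14 hpa) and 0% in the other 7 lists. Its CC peak was the widest at any member, with 14500 bp and a fold of 2.78. In the embryo a peak lay across the start, from 657 bases before to 640 bases after it at 6 hpa and from 584 before to 149 after it at 14 hpa. A further 6 hpa peak, with a fold of 2.58, touched the 3′ end of the gene. The 10 kb downstream of the gene were covered to 100% (CC), 42.0% (6 hpa), 54.0% (14 hpa), 42.0% (2-cell), 37.55% (4-cell) and 41.8% (8-cell). The downstream value was 56.6% (morula), 62.3% (ICM), 49.8% (TE) and 29.8% (PN5). It lay above that of the gene in every list but CC, and from the 2-cell stage on and in PN5 the gene itself held no peak. Of the 150-base words in Pramef17, 77.4% occurred once in the genome, against 89.2% in Pramef25 and 90.1% in Pramef6. The part of repeated sequence in these values was not tested.

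Pramef6 (chr4:143894237-143900380, minus strand) had peaks in more lists than any other member. It was covered to 78.1% (CC), 10.4% (6 hpa), 46.0% (14 hpa), 37.1% (2-cell), 0% (4-cell), 33.5% (8-cell), 39.5% (morula), 29.8% (ICM), 25.5% (TE) and 15.7% (PN5). The 4-cell list was thus the only one without a peak in it. Counted over exons alone, the 14 hpa value rose to 61.6%, the 2-cell value to 59.6% and the ICM value to 51.2%, so Pramef6 passed the 50% rule there. In the 3′ part of the gene, 69 bases between 4745 and 4813 bases downstream of the start (chr4:143895567-143895635, minus strand) lay under a peak in 9 of 10 lists. All 69 bases are coding and none is soft-masked as repeat. They are printed, with CG in capitals, as the most widely shared stretch of any member.
Pramef6 shared stretch: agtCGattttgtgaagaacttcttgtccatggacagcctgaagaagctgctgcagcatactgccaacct

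The highest fold at Pramef6 was 3.16 (CC), 2.41 (6 hpa), 2.81 (14 hpa), 3.05 (2-cell), 2.99 (8-cell), 3.44 (morula), 3.64 (ICM), 3.58 (TE) and 2.82 (PN5). The medians of all peaks of a list lay between 2.70 (CC) and 3.09 (2-cell). Pramef6 thus stood below the list median in the 6 hpa, 2-cell and PN5 lists and above it in the other 6 lists that had a peak.

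Pramef20 (chr4:144372760-144377933, minus strand) had no peak in CC or at the 2-cell stage and had one in each of the other 8 lists. It was covered to 15.9% (6 hpa), 6.28% (14 hpa), 29.8% (4-cell), 26.7% (8-cell), 23.6% (morula), 21.1% (ICM), 20.8% (TE) and 22.9% (PN5). In 7 lists the peaks shared 82 bases between 2105 and 2186 bases downstream of the start (chr4:144375747-144375828, minus strand), which hold no exon base and are soft-masked to 95.1%. That shared stretch is printed because peaks from 6 hpa to TE fell on it and CC had none, with CG in capitals.
Pramef20 shared stretch: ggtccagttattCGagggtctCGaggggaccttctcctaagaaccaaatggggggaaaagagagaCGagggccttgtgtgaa

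The fold of the highest Pramef20 peak was 2.78 (6 hpa), 2.35 (14 hpa), 3.11 (4-cell), 3.68 (8-cell), 3.49 (morula), 4.54 (ICM) and 3.78 (TE). In ICM 95.1% of all peaks of the list had a lower fold. The 2 PN5 peaks of Pramef20 lay elsewhere in the gene, between 34 and 353 and between 3507 and 4370 bases from the start, with folds of 2.73 and 2.63.

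**Figure D2:**
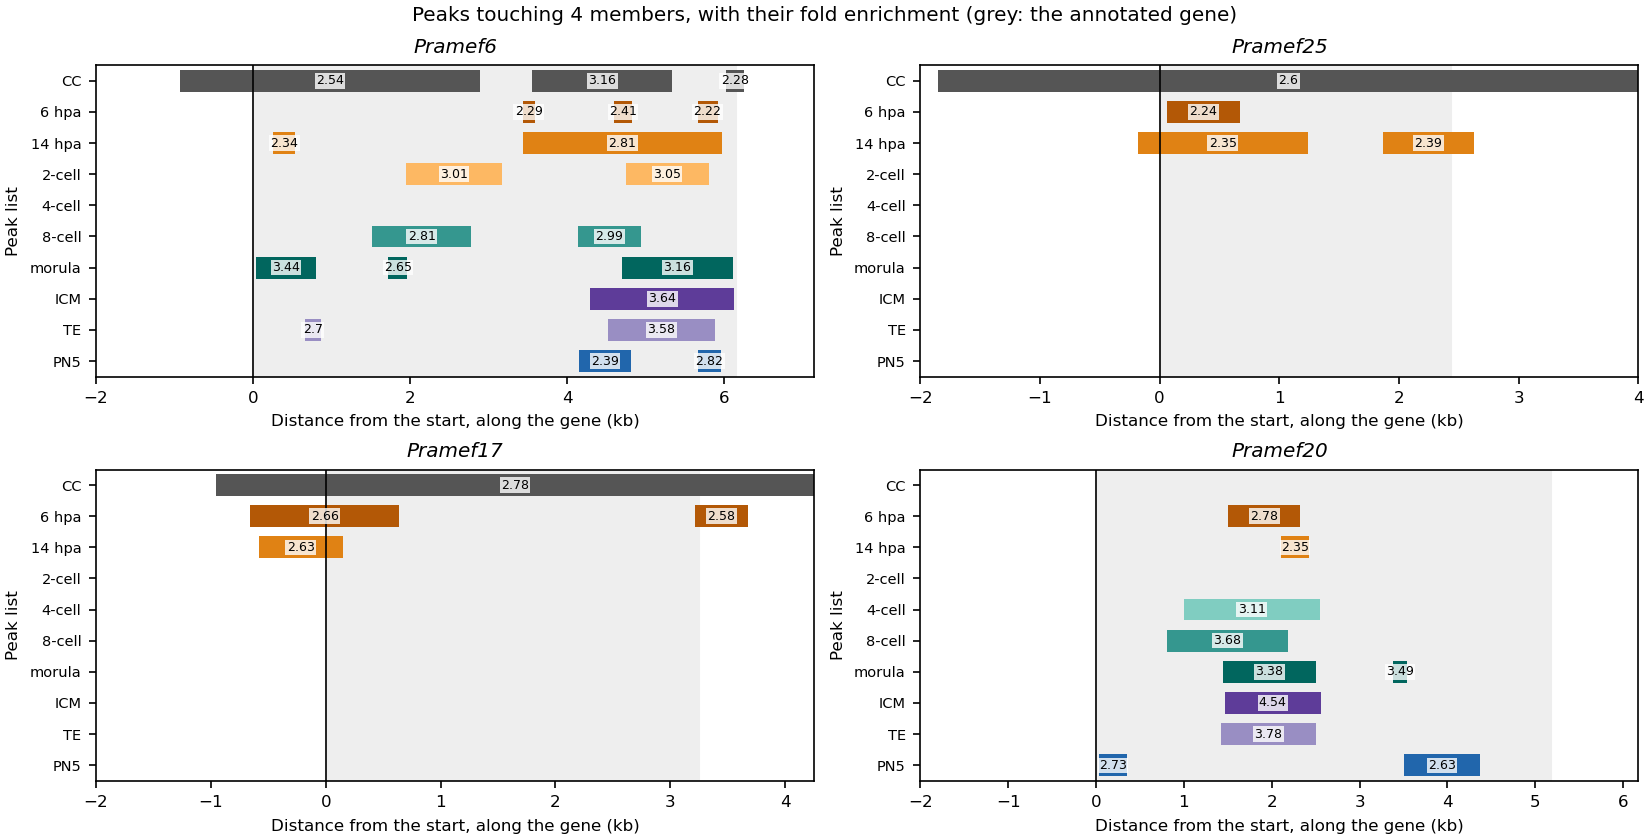
Peaks that touch Pramef6, Pramef25, Pramef17 and Pramef20 in each list, drawn by distance from the annotated start in kb along the gene; numbers are the fold of each peak over input and the grey band is the gene. CC peaks span Pramef25 and Pramef17, whereas the Pramef20 peaks from 6 hpa to TE stack at one place inside the gene.

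The other 6 members were sparsely covered in every list. Pramel5 (chr4:144270633-144280488, minus strand), whose exons were identical to those of Pramef6 at 76.1% of aligned columns, was covered to 5.76% (CC), 16.6% (6 hpa), 8.50% (14 hpa) and 4.63% (PN5) and to 0% in the other 6 lists. Its 3 CC peaks were no wider than 209 bp. Pramef8 (chr4:143412426-143421091, plus strand) was covered to 5.79% (CC), 7.51% (6 hpa), 6.30% (ICM) and 3.92% (TE) and to 0% in the other 6. One of its CC peaks, 264 bp wide and beginning 2126 bases after the start, had a fold of 4.85, above 99.7% of the CC peaks, and it was the highest fold at any member in any list. The 6 hpa, ICM and TE peaks of Pramef8 overlapped the same place with folds of 2.53, 3.17 and 3.11.

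Pramel1 (chr4:143394428-143400160, plus strand), known from testis, was covered to 0.837% (CC) and 2.08% (6 hpa), and no other list had a peak in the gene. Pramef12 (chr4:144391674-144408464, minus strand), which acts in spermatogonial stem cells, had a single peak, in PN5, that covered 0.911% of its 16791 bases. Both lie at the outer ends of the chromosome 4 region.

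On chromosome 2, Pramel7 (chr2:87489087-87497093, minus strand) was covered to 12.5% (14 hpa), 5.88% (TE) and 2.37% (PN5) and Pramel6 (chr2:87506565-87510872, plus strand) to 3.85% (14 hpa) and 14.6% (TE). All other lists, CC and ICM among them, held no peak in either gene. The folds of these peaks ran from 2.35 to 3.22, and the 3.22 belonged to a PN5 peak of 190 bp in Pramel7.

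**Figure D3:**
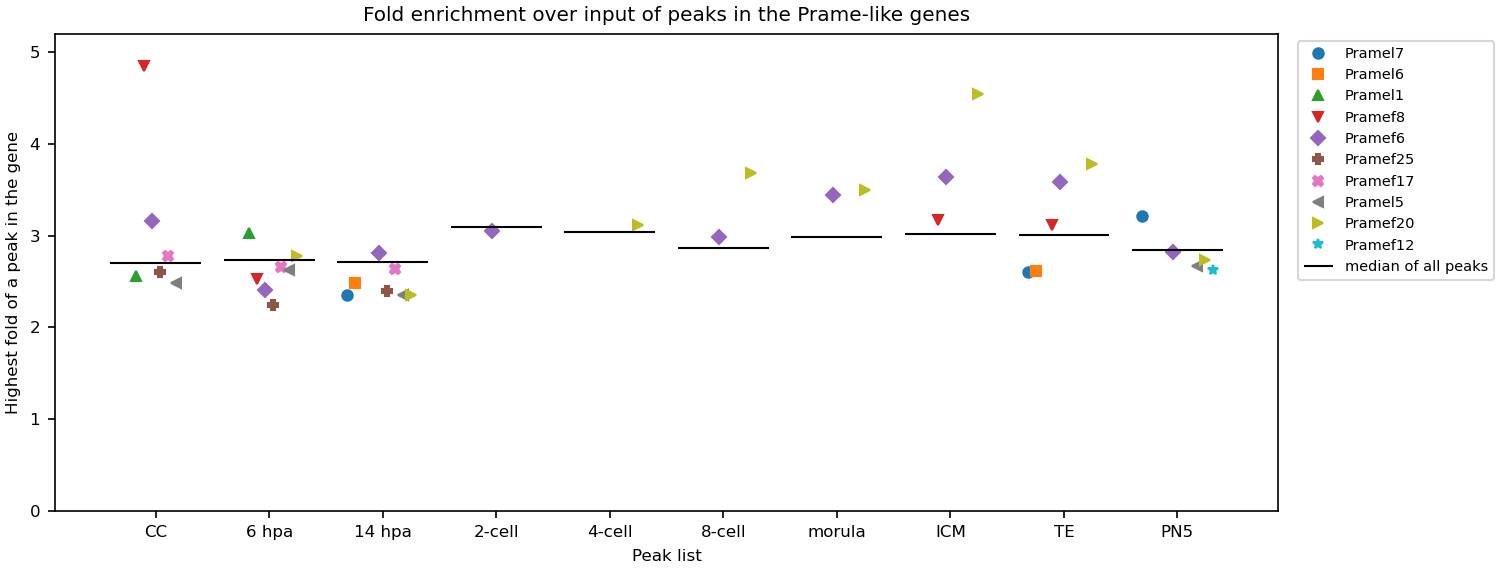
Highest fold over input of a peak in each gene by list, 1 symbol per gene, with a horizontal line at the median fold of all peaks of that list. Pramef8 reaches 4.85 (CC) and Pramef20 reaches 4.54 (ICM), while most other symbols lie near the lines.

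Promoters, taken as 1 kb either side of the annotated start, were called marked when 1 peak covered at least 50% of the promoter or lay at least 50% inside it. In CC 4 of 10 member promoters were marked, against 10.2% of all protein-coding promoters. At 6 hpa 3 were (31.4% of all promoters), and at 14 hpa 4 (10.7%). No member promoter was marked at the 2-cell (8.52%), 4-cell (6.91%) or 8-cell stage (7.52%) or in ICM (4.49%), and 1 was marked in the morula (5.59%), in TE (4.56%) and in PN5 (9.10%). The member count stood above the share of all promoters in CC and at 14 hpa and near it at 6 hpa. With every list trimmed to the covered length of PN5, 0 member promoters were marked in CC, 2 at 6 hpa and 0 at 14 hpa, so the order of the member counts turned. The share of all promoters in the trimmed lists is not given here. Whether these counts depart from it therefore cannot be read from them.

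The same 4 genes carried the early marks. The Pramef25 promoter was covered to 100% (CC), 30.9% (6 hpa) and 59.2% (14 hpa), and the Pramef17 promoter to 97.7%, 64.9% and 36.7%. The Pramel1 promoter was covered to only 28.1%, 29.4% and 8.50% in these lists and was called marked because its peaks, of 562, 589 and 170 bp, lay inside it. Pramef6 was covered to 96.7% (CC), to 0% (6 hpa), to 14.2% (14 hpa), to 38.2% (morula) and to 10.1% (TE). Pramef20 reached 9.85% (8-cell) and 16.0% (PN5), where its promoter was the single one marked. Pramel6 reached 2.95% (TE), and the promoters of Pramef8, Pramef12, Pramel5 and Pramel7 held no peak in any list. The RefSeq start of Pramel7 lies 4675 bases inside the GENCODE gene, and 1 kb either side of that start was covered to 34.8% (14 hpa) and to 0% in the other 9 lists. With RefSeq starts the Pramel7 promoter was marked at 14 hpa, which made 5 member promoters there.

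From CC to 6 hpa the members lost 3 covered genes and 1 marked promoter, that of Pramef6, and gained none, although gene coverage was lower in 3 members, higher in 4 and equal in 3, with a median difference of 0 percentage points. In the same step 3.01% of all genes and 3.56% of all promoters were called in CC and not at 6 hpa. These were 661 of the 1044 genes covered in CC and 781 of the 2240 promoters marked there. From 14 hpa to the 2-cell stage 1 covered gene and 4 marked promoters were lost (2.16% and 5.68% of all). Of the 746 genes covered and 2356 promoters marked at 14 hpa in the whole annotation, 473 and 1245 lost the call. Among the members 7 of 10 genes had a lower coverage and none a higher one. Between 14 hpa SCNT embryos and PN5 zygotes, the 1-cell stages of either kind, 1 covered gene and 4 marked promoters were called at 14 hpa only (2.76% and 7.81% of all). In the whole annotation these were 605 of the 746 genes and 1713 of the 2356 promoters called at 14 hpa. The Pramef20 promoter was marked in PN5 only. Gene coverage was lower in PN5 for 6 members, Pramef25 among them with 74.0% against 0%, and higher for Pramef20 and Pramef12. With lists trimmed to equal covered length, each of the member counts of lost genes and promoters fell to 0.

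The genes fall into 3 clusters, defined as chains of protein-coding genes named Prame or Oog (oogenesin, genes of the same family known from oocytes) with gaps of at most 250 kb. The chromosome 2 cluster of Pramel7 and Pramel6 spans 21786 bases, and the first chromosome 4 cluster of Pramel1, Pramef8 and Oog4 spans 55897 bases. The second chromosome 4 cluster runs 514228 bases from Pramef6 to Pramef12 and holds the other 4 members of that chromosome between them, together with Oog2, Oog3 and Pramel4.

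In CC the Pramef6 to Pramef12 cluster was covered to 44.4% (Wilson 95% interval with each 1 kb as 1 unit, 40.1 to 48.7), 4.07 times the 10.9% of chromosome 4 as a whole. It was covered to 19% (6 hpa, 15.9 to 22.6), 21.2% (14 hpa, 17.9 to 25), 10.1% (2-cell, 7.78 to 13.0), 9.79% (4-cell, 7.52 to 12.7) and 9.68% (8-cell, 7.41 to 12.5). The level was 13.6% (morula, 10.9 to 16.9), 13.4% in ICM (10.7 to 16.6), 12.6% in TE (10.03 to 15.8) and 5.36% in PN5 (3.73 to 7.66). The CC interval lay above that of every other list, the PN5 interval lay below those of CC, 6 hpa, 14 hpa, the 2-cell stage, morula, ICM and TE, and the 6 hpa and 14 hpa intervals overlapped. In PN5 the cluster stood at 0.942 times chromosome 4. These intervals cover counting error only, and neighbouring bases are not independent. Of its 150-base words, 86.0% occurred once in the genome. Trimmed to the covered length of PN5, the 3 clusters together fell from 38.6% to 16.4% (CC) and from 18.6% to 10.4% (14 hpa), beside 14.3% (6 hpa), 10.1% (morula), 11.2% (ICM), 10.5% (TE) and an unchanged 4.69% (PN5). CC was then closer to 6 hpa, and 14 hpa stood below 6 hpa and close to morula, ICM and TE.

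The remaining clusters stayed low. The Pramel1 and Pramef8 cluster was covered to 0.984% in CC (0.111 to 8.16), 4.15% (6 hpa, 1.24 to 12.9) and no more than 2.41% in any other list, and the whole of chromosome 4 lay above these values in every list. On chromosome 2 the Pramel7 and Pramel6 cluster was covered to 3.40% (6 hpa), 5.37% (14 hpa), 5.04% (TE) and 0.872% (PN5) and to 0% in the other 6 lists, with an interval of up to 15.0% where no base was covered.

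**Figure D4:**
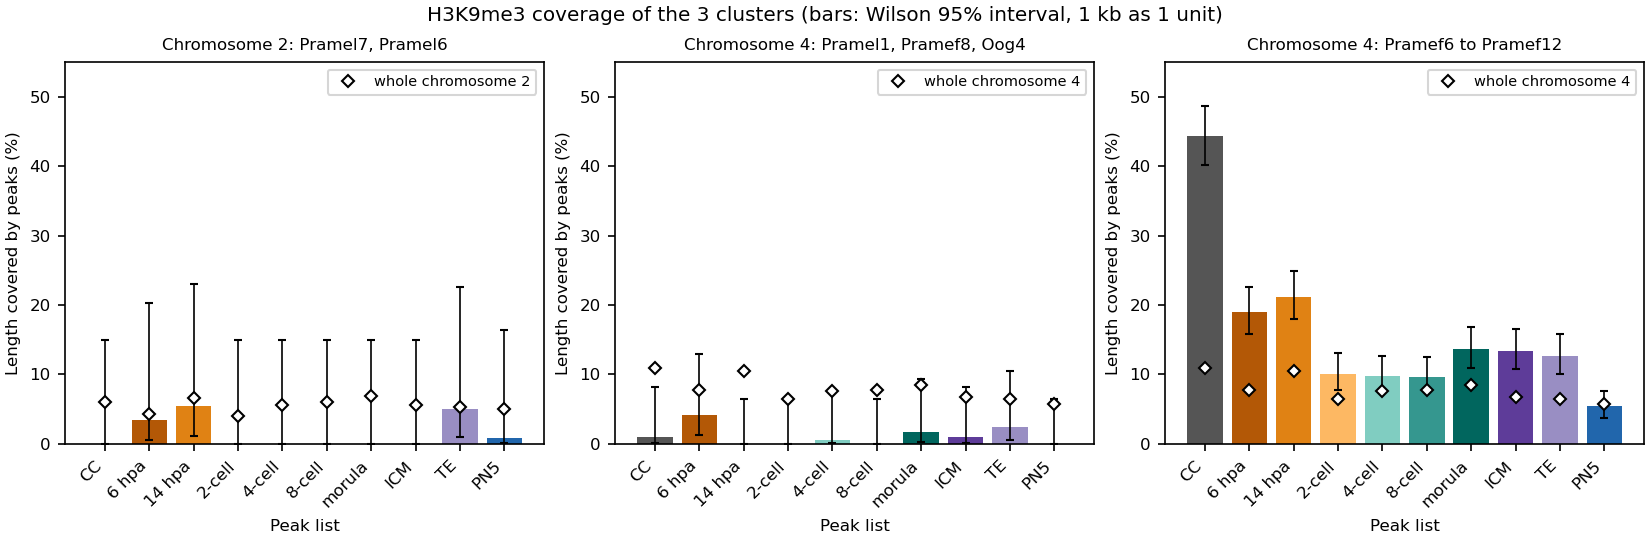
Percent of each of the 3 clusters covered by peaks in each list (columns), with Wilson 95% intervals counting 1 kb as 1 unit, and the same percent for the whole chromosome as open diamonds. The Pramef6 to Pramef12 cluster stands at 44.4% (CC), 9.68% (8-cell), 13.6% (morula) and, in fertilized zygotes, 5.36% (PN5). The other clusters stay at or under 5.37%.

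Along chromosome 4 the CC mark did not end with the clusters as defined here by gene name. The 443912 bases between the chromosome 4 clusters, which hold none of the 10 genes, were covered to 48.0% (CC), 16.6% (6 hpa), 25.1% (14 hpa) and 7.02% (PN5). RefSeq places further genes of the family there, Pramel20 to Pramel27, which GENCODE M21 lists under other symbols. Coverage of this stretch therefore does not show a mark beyond the Prame family array. Of 142 bins of 10 kb over the region and 200 kb on either side, at least 50% was covered in 45 (CC), 6 (6 hpa), 11 (14 hpa), 5 (2-cell), 8 (ICM), 8 (TE) and 3 (PN5). The bins that hold the starts of Pramef6, Pramef25 and Pramef17 were among the 45, and those that hold the starts of Pramel1, Pramef8, Pramel5, Pramef20 and Pramef12 were not.

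**Figure D5:**
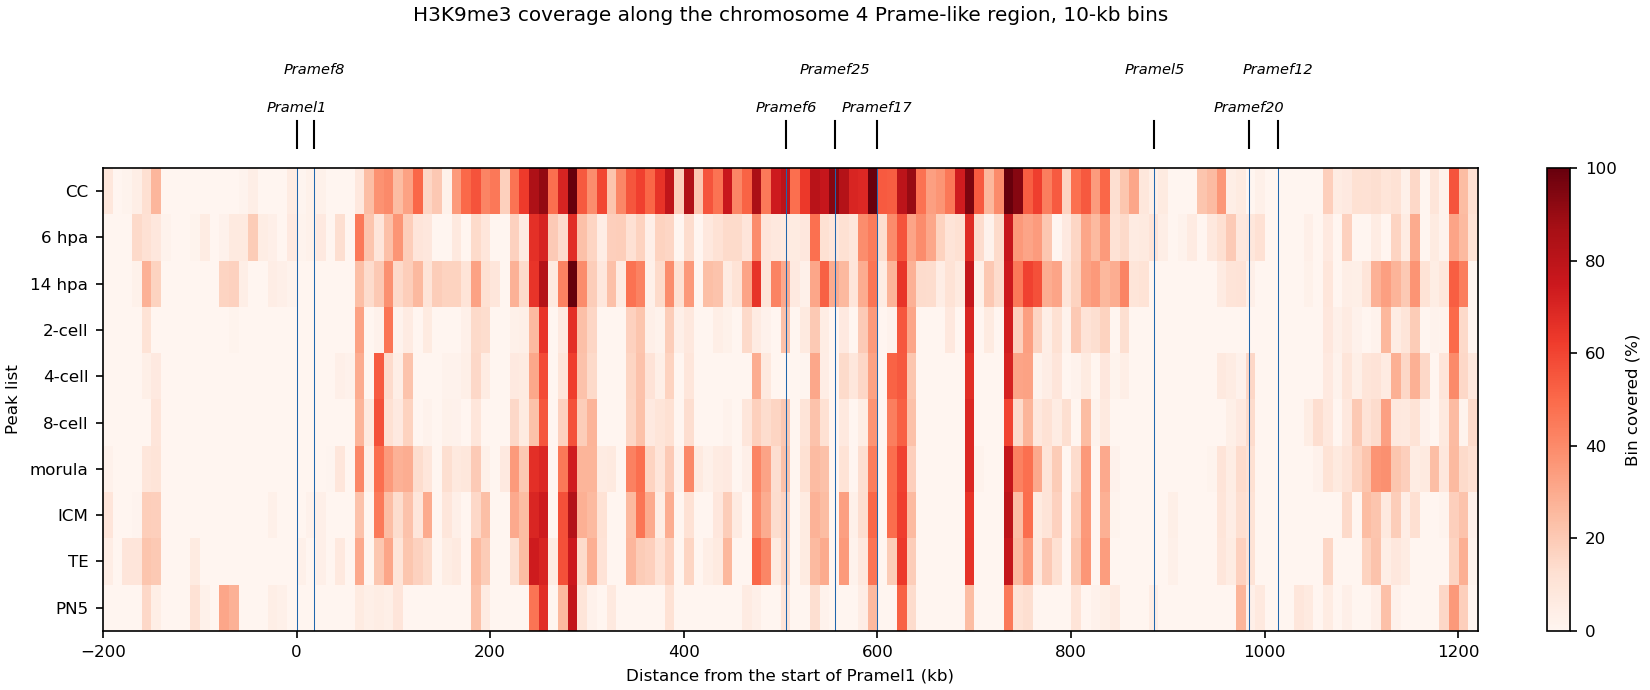
Percent of each 10-kb bin covered by peaks along the chromosome 4 region in the 10 lists, by distance from the start of Pramel1 in kb, with the starts of the 8 chromosome 4 genes marked. CC shows a broad covered stretch around Pramef6, Pramef25 and Pramef17, and the later lists keep separate bins of it.

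Of the 228 kb of the Pramef6 to Pramef12 cluster that peaks covered in CC, 31.6% was also covered at 6 hpa, 35.6% (14 hpa), 20.8% (2-cell), 25.8% (morula), 25.4% (ICM), 24.2% (TE) and 9.62% (PN5). Over the whole genome these shares were higher, with 36.6%, 54.2%, 30.4%, 38.4%, 36.3%, 33.6% and 17.3%. Seen from the later lists, 73.8% of the cluster bases covered at 6 hpa, 74.4% (14 hpa), 91.4% (2-cell) and 79.6% in PN5 lay inside CC peaks. Over the genome these shares were 59.6%, 58.4%, 56.7% and 33.0%. The 2 sets of shares have unlike baselines, as CC peaks covered 44.4% of the cluster and 9.63% of the genome. They therefore do not show that later peaks followed CC peaks more closely in the cluster than elsewhere. In all 24.4 kb, 10.7% of the CC bases of the cluster, were covered in CC and in each list from 6 hpa through ICM. No test was possible for these differences.

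GENCODE M21 names 7 other genes Prame or Oog, and further family genes that it lists under other symbols are given at the end. Among the 7, 2 were covered in CC (4.76% of all genes) and 1 at 14 hpa (3.40%). In each of the other 8 lists 0 were covered, where the share of all genes was 0.843% (TE) to 3.83% (6 hpa). The highest mean coverage over the lists belonged to Oog3, with 71.6% (CC) and 70.3% (14 hpa), Pramel4, with 66.2% (CC) and 10.4% (14 hpa), and Oog2, with 21% and 8.88%, all within the Pramef6 to Pramef12 cluster. The lowest belonged to Prame and Pramel3 on chromosome X, with 0% and 9.58% (CC), and to Oog4 on chromosome 4, with 0%. The promoters of Prame and Pramel3 were marked in CC, at 14 hpa and at the 2-cell stage all the same, and that of Pramel3 also in ICM and TE. Of the 7 promoters 5 were marked in CC (10.2% of all promoters), 3 at 14 hpa (10.7%) and 2 at the 2-cell stage (8.52%). Each other list had at most 1, where the share of all promoters was 4.49% (ICM) to 31.4% (6 hpa). Outside the family, the genes most like the mean of the 8 chromosome 4 members, by the root mean square difference in gene coverage over the 10 lists, were Agbl1 (1.96 percentage points), Xkr4 (2.26), Nlrp14 (2.78), Gm8871 (2.79) and Sirpb1a (2.83). For the mean of Pramel6 and Pramel7 they were Olfr477 (1.74), Olfr774 (2.11), Havcr2 (2.33), Dmc1 (2.41) and Olfr1306 (2.50). The chromosome 4 mean, 36.3% in CC, was not the value of any single member. Pramef25, Pramef17 and Pramef6 were covered to 78.1% or more there, and the rest of the chromosome 4 members to 5.79% or less.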

How the data were processed

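The authors trimmed reads with cutadapt 1.16, aligned them to mm10 with BWA mem, merged the libraries of a group with SAMtools, and removed duplicates and downsampled each group to an equal read number with Picard, as their methods and the submitters' processing notes state. MACS2 broad peaks were called over input. Its version and threshold, and any filter on reads that align to several places, are not given in the sources used here. Each deposited peak carries a ratio (the fold over input) and a −log10 q averaged over the peak by the authors' peak caller, and also a −log10 p and a deposited display score, which were not used. The lowest deposited −log10 q lay between 1.30 (PN5) and 1.52 (CC).

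Here peaks were merged within each list, and covered bases were counted for genes, exons, promoters and clusters of GENCODE M21 on GRCm38.p6, the same build. The fold of a gene is that of its highest peak. A 150-base word was counted as found once when neither strand of the 21 chromosomes and 44 further contigs held it again. Python 3.11.15, numpy 2.4.6, statsmodels 0.14.6 and biopython 1.88 were used, and the counting was tested on simulated data. All 10 genes were named. Of the other genes named Prame or Oog the 3 with the highest and the 3 with the lowest mean coverage were named, and outside the family the 5 most alike per chromosome. The genes and lists were chosen with earlier results of these data known. Alternatives were a −log10 q of at least 2, lists trimmed by q to the shortest covered length (134 Mb), 25% of the gene, exons only, 500 bases either side of the start, 50% of the promoter covered, and gaps of 1 Mb. RefSeq starts, and trimmed lists for the RefSeq Pramel genes of chromosome 5, were added after seeing the data. Read depth of single libraries was not used here, and intervals cover counting error only.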

Additional observations from a re-analysis of the deposited data

How the results depend on the processing

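No paired analysis was possible because each deposited list is 1 pool of a group's libraries, and leaving out a replicate was likewise not possible. With lists trimmed to equal covered length, covered members fell to 0 in both CC and 14 hpa, marked promoters fell to 0 in CC, 14 hpa and TE, and the coverage of all 3 clusters together fell to 16.4% (CC) and 10.4% (14 hpa). Every loss of a covered gene or marked promoter from CC or from 14 hpa to a later list or PN5 then fell to 0. Promoters gained became 2 from CC to 6 hpa, 0 from 6 hpa to 14 hpa, 1 from CC to morula and 0 from ICM to TE, promoters lost became 2 from 6 hpa to 14 hpa and 1 from morula to TE, and genes gained from 6 hpa to 14 hpa became 0. With a −log10 q of at least 2, covered members at 14 hpa fell to 0, marked promoters to 1 (14 hpa), 0 (TE) and 0 (PN5), and the cluster coverage to 34.1% (CC), 12.3% (6 hpa), 15.5% (14 hpa) and 2.94% (PN5). The median of the highest folds of the members then moved to 2.78 (CC), 2.72 (6 hpa), 2.72 (14 hpa), 3.58 (TE) and 3.02 (PN5). With 25% of the gene as the rule, 1 member was covered at 6 hpa, 2 (14 hpa), 1 (2-cell), 1 (4-cell), 2 (8-cell), 1 (morula), 1 (ICM) and 1 (TE). Over exons alone 2 were covered at 14 hpa, 1 (2-cell) and 1 (ICM). With 50% of the promoter required, 1 was marked at 6 hpa, 1 (14 hpa) and 0 in the morula, TE and PN5, and with 500 bases either side 0 was marked in TE. With gaps of 1 Mb the coverage was 42.6% (CC), 15.8% (morula), 15.2% (ICM) and 14.4% (TE). RefSeq starts, an alternative chosen after seeing the data, moved no count of marked promoters by more than 1.5 times. The cause was not tested. Shares of all genes or promoters under these alternatives are not given here. The counts therefore show only how the member calls depend on the rule.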

Other observations

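RefSeq names further Pramel genes that GENCODE M21 lists under other symbols, and these were looked at after the values of the 10 genes were seen. On chromosome 5, 18 of 18 such genes were covered to at least 50% in CC, with a median of 100% and a lowest value of 79.4%, against 4.76% of all protein-coding genes. Of the 18, 2 lie inside another of them, which leaves 16 separate genes. At 6 hpa 13 of the 18 were covered (3.83% of all genes), with a median of 77.2%, and at 14 hpa 17 (3.40%), with a median of 81.2%. Later the count was 3 (2-cell, 1.98% of all genes), 8 (4-cell, 2.26%), 5 (8-cell, 2.23%) and 7 (morula, 1.68%). It was 3 in ICM (1.08%), 0 in TE (0.843%) and 0 in PN5 (1.95%), with a median of 11.3% in TE and 0% in PN5. With lists trimmed to equal covered length, an alternative added after seeing the data, the count was 17 (CC), 13 (6 hpa), 13 (14 hpa), 3 (8-cell) and 0 (ICM). No share of all genes is given for the trimmed lists. How many of the 150-base words of these genes occur once was not measured, so the part of repeated sequence was not tested.

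In the chromosome 4 region 11 further RefSeq Pramel genes had a median coverage of 28.6% in CC, with none at 50%, of 9.52% at 6 hpa, of 7.48% at 14 hpa and of 0% in PN5. Pramel21 went the other way, with 14.0% in CC, 67.6% at 14 hpa and 59.0% in the morula, and was the one of the 11 to reach 50% in any list. Elsewhere in the genome 6 such genes had a median of 0% in CC. Among them Pramel32 on chromosome 4 was covered to 4.86% in CC, 7.46% (6 hpa), 25.99% (14 hpa), 17.2% (2-cell), 26.1% (4-cell), 7.78% (8-cell), 24.3% (morula), 35.9% (ICM), 41.3% (TE) and 0% (PN5). Pramel51 reached 8.79% in TE. Pramel21, Pramel32 and Pramel51 were chosen after their values were seen. In the whole annotation, 3587 of 21938 protein-coding genes (16.4%) had no peak in any of the 10 lists. Each of the 10 Prame-like genes had at least 1, which for so few genes is near that share. For Pramef12 it was a single PN5 peak of 153 bp.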
